A study of Homo sapiens with 4 samples.

Results

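SW1736 and 8505C are established cell lines of anaplastic thyroid cancer (ATC), the undifferentiated form of thyroid carcinoma. SW1736-PTX and 8505C-PTX are the populations derived from them by exposure to paclitaxel, a taxane that binds and stabilises microtubules, at doses raised from 1 nM to 1.5 µM over 6 months. The resistant populations were kept in 1.5 µM paclitaxel while the wild-type (wt) cells received none, so the acquired state and the presence of the drug cannot be told apart. Bulk mRNA was sequenced from 1 library per condition, 4 in all, and no sample is described as a clone. There were therefore no replicates, and no p-value is given for any difference. The genes described here are 10 of the 26485 gene names in the tables: the actins ACTB, ACTG1 and ACTA2, the tropomyosins TPM1 and TPM2, the crosslinker ACTN1, the adhesion protein gene VCL, the myosin light chain gene MYL9, and the actin-binding genes TAGLN and CNN1. They were chosen by name, as actins, tropomyosins and contractile genes of the kind driven by serum response factor (SRF), and because ACTB was lower in both PTX libraries. The change of ACTB in these libraries was thus part of the choice and is given as a description.

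Actin monomers polymerise into filaments. Tropomyosins lie along the filaments and control which proteins reach them, alpha-actinins crosslink them, vinculin couples them to integrin adhesions, and non-muscle myosin II, with its regulatory light chains, pulls on them. SRF is a transcription factor that binds the CArG box, a DNA element made of CC, 6 bases that are each A or T, and GG. It does so with myocardin-related cofactors (MKL1 and MKL2 in these tables) that are held back by free actin monomers, or with ternary complex factors such as ELK1. Smooth muscle cells use the same system with myocardin (MYOCD) to express ACTA2, TAGLN, CNN1 and MYL9 at high levels.

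Read numbers were rebuilt from the depth implied by the deposited values, taking 75 bp for every aligned read. They came to 43.5 M to 57.9 M per library, more in PTX than in wt cells of either line. The thyroid markers TSHR and SLC5A5 were listed at 0 in all 4 libraries and TG did not exceed 0.00586 FPKM (aligned fragments scaled to transcript length and to the depth of the library). The library labelled SW1736-PTX stood apart from SW1736 wt in several lineage genes. The thyroid transcription factor PAX8 was at 38.2 FPKM in SW1736 wt and at 0.206 in the library labelled SW1736-PTX, beside 0.123 in 8505C wt and 0.146 in 8505C-PTX. The thyroid factor NKX2-1 was listed at 0 in SW1736 wt and was at 36.3 FPKM in the library labelled SW1736-PTX, beside 30.5 in 8505C wt and 39.0 in 8505C-PTX. Over 14692 genes expressed in at least 1 library, the correlation across genes of log2 FPKM was 0.767 between SW1736 wt and the library labelled SW1736-PTX, 0.873 between that library and 8505C wt, and 0.933 between both PTX libraries. Genes are not independent replicates, and these coefficients describe the libraries only. A swap or mixing of cells or libraries was not tested and cannot be told apart from selection here. Agreement between both lines is therefore not read as independent repetition. The values of the 10 genes in the SW1736 pair are therefore also given with 8505C wt as the reference, as are the medians of the gene lists and the values of many of the other genes described below.

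The log2 fold change of a gene was the difference of log2(FPKM + 0.1) between PTX and wt, a scale that makes the changes of weakly expressed genes look smaller than they are. Genes had to exceed 0.5 FPKM in one or both libraries of a pair to be compared, and a log2 fold change beyond 1.5 in either direction was called. A gene above that minimum in only 1 library of a pair can differ only toward that library, so its direction is fixed by the minimum. Values written as -fold are plain ratios of FPKM without the added 0.1, so they can be larger than the log2 value beside them implies. Of the 10 genes, 9 were compared in each line and CNN1 was not. In SW1736, 2 of the 9 were called lower, MYL9 and TAGLN, and 0 were called higher. Over all 14202 genes compared in that pair, 10.2% were called lower and 15.7% higher. In 8505C, 3 of the 9 were called lower, MYL9, TAGLN and ACTB, and TPM2 was called higher. Over all 13794 genes compared in 8505C, 5.89% were called lower and 15% higher, and since the choice of genes rested on the ACTB change in these contrasts, nothing is read from its count. With 8505C wt as the reference of the library labelled SW1736-PTX, MYL9 and TAGLN were again the called genes, both lower, while 5.23% of 13824 genes were called lower and 15.1% higher.

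MYL9 and TAGLN were called lower in both lines, as were 2.41% of the 13304 genes compared in both lines, and 7.37% of those genes were called higher in both. Lower values in both lines, by any amount, were seen for 5 of the 9 genes (ACTB, ACTN1, TAGLN, MYL9 and VCL) and for 32.7% of all genes. ACTB is among the 5 by the choice of the genes. Nothing is therefore read from this count or from the medians that follow, which include ACTB. The median log2 fold change of the 9 genes was -0.88 in SW1736 and -0.61 in 8505C, beside 0.01 and 0.11 over all genes. Against 8505C wt, the median of the 9 genes for the library labelled SW1736-PTX was -0.18, beside 0.10 over all genes. The centre of all genes in 8505C thus lay 0.11 above 0. Relative to it, each 8505C value given below would be lower by that amount. The same of the 9 genes are then called, while among the other actin-system genes SRF (-1.58) and ACTR3 (-1.503) would be called lower in 8505C and FHL2 (1.48) would no longer be called higher.

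**Figure D1:**
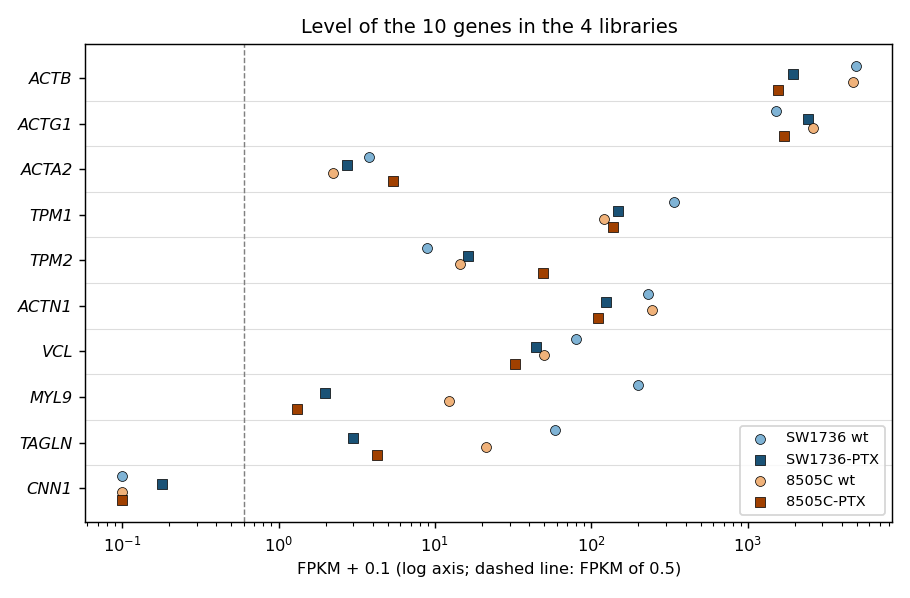
Level of the 10 genes in each of the 4 libraries, as FPKM + 0.1 on a log axis, with circles for wt and squares for PTX libraries and a dashed line at the minimum of 0.5 FPKM. MYL9 runs from 199 FPKM in SW1736 wt down to 1.21 in 8505C-PTX, ACTB is at 1945 and 1560 in the PTX libraries and at 4905 and 4688 in the wt libraries, and CNN1 lies left of the line in every library.

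ACTB encodes beta-actin, the main cytoplasmic actin of most cells. The gene lies on the minus strand at chr7:5527148-5530601 (hg38, as the tables give it) and its reference transcript has 6 exons. Its level was 4905 FPKM in SW1736 wt, 1945 in the library labelled SW1736-PTX, 4688 in 8505C wt and 1560 in 8505C-PTX. Both wt libraries were high and near each other and both PTX libraries were lower, with no overlap between wt and PTX. For ACTB the lower PTX values were part of the choice. The share of all genes with both wt libraries above both PTX libraries was not counted. Nothing is therefore read from such a separation, here or for the genes below. ACTB was the most abundant gene of both wt libraries and ranked 26 in the library labelled SW1736-PTX and 37 in 8505C-PTX. It held 1.12% of all TPM (an abundance that sums to the same total in every library) in SW1736 wt and 1.07% in 8505C wt, against 0.429% and 0.347% in the corresponding PTX libraries. The log2 fold change was -1.59 in 8505C, just inside the threshold, and -1.33 in SW1736, just outside it. These are 3.01-fold and 2.52-fold lower levels. With 8505C wt as the reference of the library labelled SW1736-PTX, the level was 2.41-fold lower. In 8505C, 5.21% of the genes compared had a lower fold change than ACTB, and in SW1736 12.2% did.

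ACTG1 encodes gamma-actin, the other cytoplasmic actin, whose protein differs from beta-actin in a few residues near its start. The gene lies on the minus strand at chr17:81509971-81512866 (hg38). Because the choice of these genes named SRF, promoters in a RefSeq table (GRCh38.p14, 250 bases before to 50 after each start) were searched for the CArG box, whose letter pattern reads the same on both strands. The table held 12 promoters for 7 of the 10 genes and none for ACTB, TAGLN and MYL9. A complete box was found in 2 of the 12, compared with 1.29% of all 35116 promoters. With 1 of the 6 inner bases allowed to differ, 3 of the 12 promoters and 8.13% of all promoters held a match. The genes were chosen as of the SRF-driven kind, and some supply several of the 12 promoters. Nothing is therefore read from these shares. The matched stretches of 40 bases are shown because they hold the letters of the element that SRF binds. They are written 5′ to 3′ on the minus strand, along the gene, with the CArG box or its 1-substitution form in capitals. None overlaps an annotated exon (GENCODE release 44). Both ACTA2 stretches lie within longer ACTA2 transcripts but outside the reference transcript. The word inner below gives the place of that start in the gene's full span and does not rank it.
ACTG1, complete box, chr17:81512869-81512908, 94 bases before the RefSeq start: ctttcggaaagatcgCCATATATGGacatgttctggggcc
ACTN1, complete box, chr14:68977713-68977752, 171 bases before an alternative start within the gene: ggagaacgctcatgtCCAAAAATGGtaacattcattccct
ACTA2, 1 substitution, chr10:88952870-88952909, 121 bases before an inner start: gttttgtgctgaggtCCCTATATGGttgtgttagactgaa
ACTA2, 1 substitution, chr10:88952820-88952859, 71 bases before the same start: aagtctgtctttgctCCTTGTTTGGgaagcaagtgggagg
A match describes the letters of the window and says nothing of whether SRF was bound there in these cells.

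The level of ACTG1 was 1521 FPKM in SW1736 wt, 2418 in the library labelled SW1736-PTX, 2605 in 8505C wt and 1715 in 8505C-PTX. The wt and PTX libraries overlapped, and the order of wt and PTX differed between the lines. The log2 fold change was 0.67 in SW1736 and -0.60 in 8505C, and -0.11 when the library labelled SW1736-PTX was set against 8505C wt. The coding sequences of ACTB and ACTG1 are similar. Reads from stretches that match in both could be split between the genes in a way the sources used here do not describe. How many reads this concerns was not tested. The 3 ACTG1 pseudogenes in the tables summed to at most 0.986 FPKM in any library, and the tables list no ACTB pseudogene.

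The balance of the cytoplasmic actins differed between wt and PTX libraries. ACTB held 76.3% of the summed actin FPKM in SW1736 wt and 44.6% in the library labelled SW1736-PTX. In 8505C it held 64.3% in wt and 47.6% in PTX. The remainder was almost entirely ACTG1, which was the more abundant actin in both PTX libraries and the less abundant in both wt libraries. On the ratio scale, ACTB over ACTG1 was 3.22 in SW1736 wt, 0.804 in the library labelled SW1736-PTX, 1.80 in 8505C wt and 0.909 in 8505C-PTX. Total actin FPKM was 6429, 4366, 7295 and 3281 in the same order of libraries, which is a log2 fold change of -0.56 in SW1736, -1.15 in 8505C and -0.74 for the library labelled SW1736-PTX against 8505C wt. The sum therefore moved less than ACTB itself in each pair.

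ACTA2 encodes smooth muscle alpha-actin and lies on the minus strand at chr10:88935074-88991390 (hg38). Its level was 3.69 FPKM in SW1736 wt, 2.63 in the library labelled SW1736-PTX, 2.14 in 8505C wt and 5.33 in 8505C-PTX, far below the cytoplasmic actins in each library. The wt and PTX libraries overlapped and the gene was called in neither line. The log2 fold change was -0.48 in SW1736, with a 95% counting interval from -0.77 to -0.22, and 1.28 in 8505C, from 1.02 to 1.61. Such intervals are exact binomial limits on read numbers rebuilt from the FPKM, the depth and the reference transcript length. They cover counting error only, not the unknown spread between cultures. With 8505C wt as the reference, the value for the library labelled SW1736-PTX was 0.28, with an interval from -0.04 to 0.62 that includes 0. The outermost start of ACTA2, upstream of the inner start named above, overlaps FAS on the opposite strand. FAS had levels of 5.40, 1.45, 5.08 and 3.15 FPKM in the 4 libraries. Whether counting used strand is not stated, so the part of FAS in the ACTA2 values was not tested. The muscle actins ACTA1, ACTC1 and ACTG2 did not exceed 0.0874 FPKM in any library. ACTBL2, an actin-like gene, was at 3.73 FPKM in SW1736 wt and did not exceed 0.0685 elsewhere, and was called lower in SW1736.

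**Figure D2:**
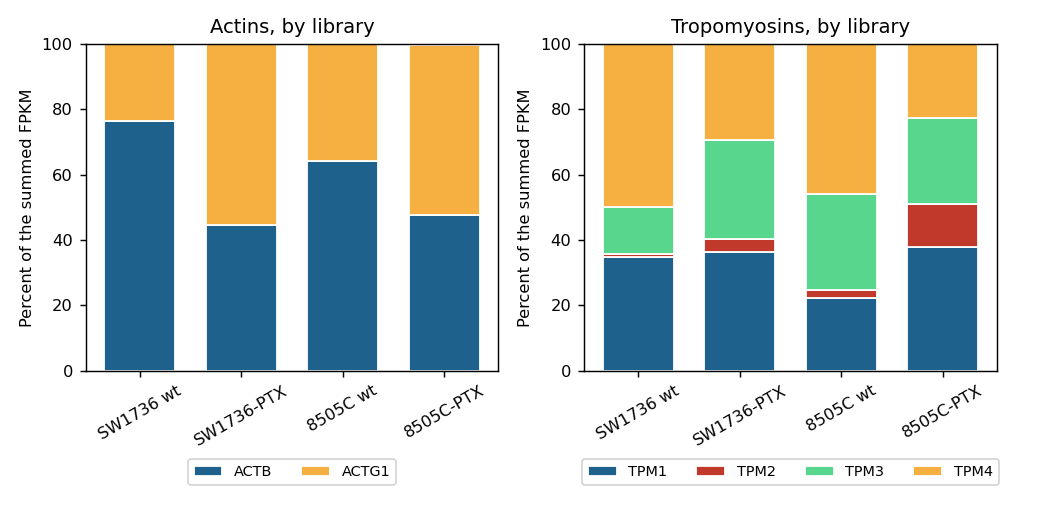
Share of the summed FPKM of the actins (left) and of the tropomyosins (right) held by each gene in each library, in percent. ACTB holds 76.3% of the actins in SW1736 wt, 44.6% in the library labelled SW1736-PTX, 64.3% in 8505C wt and 47.6% in 8505C-PTX, and TPM2 holds 0.907%, 3.95%, 2.66% and 13.3% of the tropomyosins.

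The tropomyosins did not move together. TPM1 lies on the plus strand at chr15:63042639-63071914 (hg38) and was at 339 FPKM in SW1736 wt, 149 in the library labelled SW1736-PTX, 120 in 8505C wt and 138 in 8505C-PTX. SW1736 wt was the high library and the other three were close to each other. The log2 fold change was -1.19 in SW1736 and 0.20 in 8505C, and 0.31 for the library labelled SW1736-PTX against 8505C wt. The value in SW1736 was thus of the size of the difference between the wt lines, where 8505C wt was at -1.495 relative to SW1736 wt.

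TPM2, which encodes beta-tropomyosin, lies on the minus strand at chr9:35681993-35690056 (hg38). It was at 8.82 FPKM in SW1736 wt, 16.2 in the library labelled SW1736-PTX, 14.5 in 8505C wt and 48.6 in 8505C-PTX. 8505C-PTX was the high library, 3.37-fold above 8505C wt (log2 fold change 1.74, counting interval from 1.64 to 1.87). This interval rests on reads rebuilt from the FPKM. In 8505C wt and 8505C-PTX the TPM2 FPKM was 2.25-fold the read coverage scaled to depth, so the interval can be too narrow. The library labelled SW1736-PTX was 1.84-fold above SW1736 wt (log2 fold change 0.87) but lay near 8505C wt (0.17). TPM2 was the gene called higher among the 9, and in 8505C alone, and the difference between the lines was not tested.

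TPM4, a cytoskeletal tropomyosin outside the chosen genes, was called lower in both lines. Its level was 485 FPKM in SW1736 wt, 121 in the library labelled SW1736-PTX, 249 in 8505C wt and 82.7 in 8505C-PTX. Its log2 fold change was -2.00 in SW1736 and -1.59 in 8505C, and -1.04 for the library labelled SW1736-PTX against 8505C wt. As a share of all tropomyosin FPKM, TPM4 was 49.9% and 45.8% in the wt libraries and 29.5% and 22.6% in the PTX libraries, SW1736 first in each case. TPM2 was 0.907% and 2.66% in the wt libraries and 3.95% and 13.3% in the PTX libraries. Tropomyosin levels depend on how the locus is measured, because StringTie's FPKM sums its transcripts and these genes have many. In SW1736 wt, FPKM exceeded the depth-scaled coverage 7.14-fold for TPM1, 5.61-fold for TPM3, 3.11-fold for TPM4 and 2.197-fold for TPM2, compared with 1.00-fold for ACTB. By coverage, the TPM2 share was 1.73% and 4.87% in the wt libraries and 8.19% and 25.6% in the PTX libraries, and that of TPM4 was 67.1% and 60.6% against 43.8% and 31.5%. The order of wt and PTX was the same on both scales. Of the 6 other tropomyosin, actinin, calponin and transgelin genes compared in SW1736, TPM4 was the 1 called lower and 0 were called higher (median -0.32). Of 7 compared in 8505C, 2 were called lower, TPM4 and the weakly expressed TAGLN3 (0.548 FPKM in wt and listed at 0 in PTX), and 0 higher (median -0.64).

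ACTN1 encodes alpha-actinin-1, which crosslinks filaments in stress fibres and at adhesions. It lies on the minus strand at chr14:68874123-68979366 (hg38). Its level was 230 FPKM in SW1736 wt, 125 in the library labelled SW1736-PTX, 244 in 8505C wt and 109 in 8505C-PTX. Both wt libraries lay above both PTX libraries, as for ACTB. The log2 fold changes of -0.88 and -1.16, and -0.97 against 8505C wt, did not reach the threshold. ACTN4, the other non-muscle alpha-actinin gene, held 56.8% of the summed alpha-actinin FPKM in SW1736 wt, 73.8% in the library labelled SW1736-PTX, 54.8% in 8505C wt and 63.4% in 8505C-PTX.

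VCL encodes vinculin and lies on the plus strand at chr10:73998114-74120156 (hg38). It was at 79.9 FPKM in SW1736 wt, 43.9 in the library labelled SW1736-PTX, 49.6 in 8505C wt and 32.5 in 8505C-PTX. Both wt libraries were higher than both PTX libraries, but the library labelled SW1736-PTX was close to 8505C wt. The log2 fold change was -0.86 in SW1736, -0.61 in 8505C and -0.18 for the library labelled SW1736-PTX against 8505C wt. VCL was called in none of these pairs.

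MYL9 encodes a regulatory light chain of myosin II, the subunit whose phosphorylation switches the motor on. It lies on the plus strand at chr20:36541484-36549823 (hg38) and its reference transcript has 4 exons. Its level was 199 FPKM in SW1736 wt, 1.89 in the library labelled SW1736-PTX, 12.3 in 8505C wt and 1.21 in 8505C-PTX. Both wt libraries lay above both PTX libraries, and the PTX libraries were within 1 log2 unit of each other although the wt libraries differed 16.2-fold. The level was 106-fold lower in SW1736 (log2 fold change -6.65, counting interval from -6.99 to -6.47) and 10.2-fold lower in 8505C (-3.24, from -3.71 to -3.001). With 8505C wt as the reference, the library labelled SW1736-PTX was 6.51-fold lower (-2.64, from -2.99 to -2.42). Only 0.232% of the genes compared in SW1736 and 0.544% of those in 8505C had a lower fold change. MYL12A and MYL12B, which encode the related non-muscle regulatory light chains, were called in neither line. MYL12A was at 201, 335, 188 and 205 FPKM and MYL12B at 557, 314, 445 and 259 FPKM in the same order of libraries. They therefore stood above MYL9 in every library. The antisense gene DLGAP4-AS1, which spans MYL9, did not exceed 0.0764 FPKM.

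TAGLN encodes transgelin (SM22-alpha), an actin-binding protein of smooth muscle and fibroblasts. It lies on the plus strand at chr11:117199324-117204792 (hg38). Its level was 58.2 FPKM in SW1736 wt, 2.89 in the library labelled SW1736-PTX, 21.0 in 8505C wt and 4.18 in 8505C-PTX. Both wt libraries were above both PTX libraries. The level was 20.1-fold lower in SW1736 (log2 fold change -4.28, counting interval from -4.55 to -4.11) and 5.03-fold lower in 8505C (-2.30, from -2.53 to -2.13). Against 8505C wt, the library labelled SW1736-PTX was 7.27-fold lower (-2.82). TAGLN2, the form found in most non-muscle cells, held 88.5% of the summed transgelin FPKM in SW1736 wt, 99.3% in the library labelled SW1736-PTX, 94.8% in 8505C wt and 99.0% in 8505C-PTX. The sum of the transgelins therefore moved little, with log2 fold changes of -0.26 in SW1736, -0.03 in 8505C and 0.03 for the library labelled SW1736-PTX against 8505C wt. LOC100652768, which overlaps TAGLN on the opposite strand, had levels of 0.484, 1.25, 0.322 and 1.21 FPKM, and its part in the TAGLN values was not tested.

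CNN1 encodes calponin-1, a smooth muscle protein that slows the myosin motor. It lies on the plus strand at chr19:11538717-11550323 (hg38). It was listed at 0 in SW1736 wt, 8505C wt and 8505C-PTX and was at 0.0792 FPKM in the library labelled SW1736-PTX, which corresponds to about 6.87 reads. A count of 3 reads, set here as an approximate floor for a listed 0, would be 0.0409 FPKM in SW1736 wt, 0.0460 in 8505C wt and 0.0374 in 8505C-PTX. The gene was below the minimum in every library and was not compared. The other calponins were expressed, with CNN3 at 48.6% of the summed calponin FPKM in SW1736 wt, 64.8% in the library labelled SW1736-PTX, 64.7% in 8505C wt and 68.8% in 8505C-PTX, and nearly all the rest was CNN2.

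**Figure D3:**
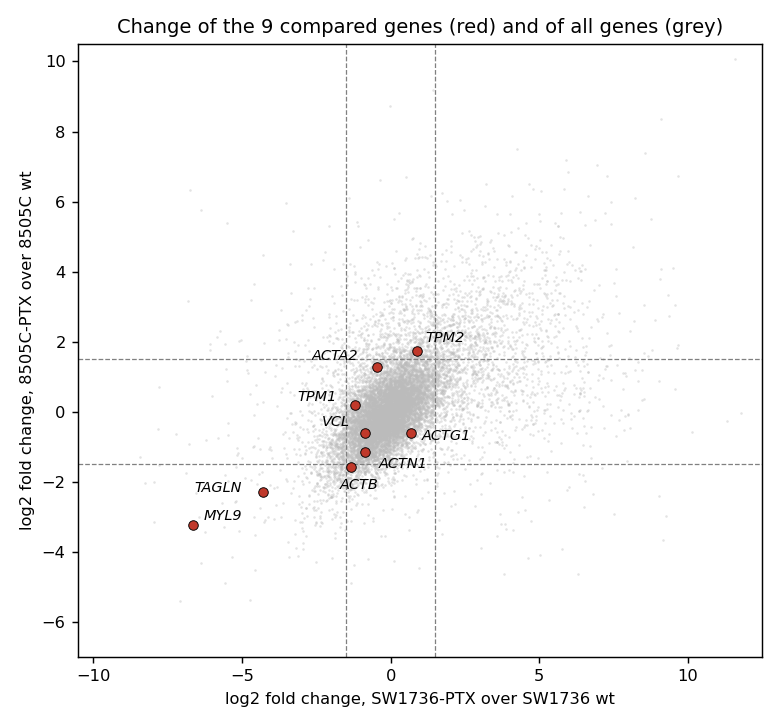
Log2 fold change of the 9 compared genes (red) and of all genes compared in both lines (grey), with SW1736 on the x axis and 8505C on the y axis and dashed lines at the threshold of 1.5 in either direction. MYL9 (-6.65 and -3.24) and TAGLN (-4.28 and -2.30) lie in the lower left region, ACTB (-1.33 and -1.59) sits at its corner, and TPM2 lies above the upper line.

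MYL9, TAGLN and ACTA2 are also expressed by fibroblasts and smooth muscle cells, so markers of both were examined. Of 8 fibroblast markers, COL1A1 and COL1A2 were at 153 and 104 FPKM in SW1736 wt, where PDGFRA, DCN, LUM and FAP were listed at 0. In the other 3 libraries COL1A1 did not exceed 2.19 FPKM and COL1A2 did not exceed 1.67. The 8 markers summed to 258 FPKM in SW1736 wt, 10.1 in the library labelled SW1736-PTX, 0.335 in 8505C wt and 8.18 in 8505C-PTX, so their sum was lower in PTX in one line and higher in the other. In 8505C, MYL9 and TAGLN were called lower while this sum went from 0.335 to 8.18 FPKM. In SW1736 COL1A1 and COL1A2 were called lower, in the same direction as MYL9. Against 8505C wt they were called higher in the library labelled SW1736-PTX, at 2.85 and 4.14, while MYL9 was called lower there at -2.64. COL1A1 and COL1A2 were below the minimum in 8505C wt, so their direction in that pair was fixed by it. The 5 smooth muscle markers MYH11, ACTG2, DES, LMOD1 and MYOCD summed to 0.307 and 0.210 FPKM in the wt libraries and to 2.30 and 1.93 in the PTX libraries, SW1736 first. PDGFRB, a mural and fibroblast receptor, made up most of the fibroblast sum in both PTX libraries, at 6.08 and 6.49 FPKM. The endothelial gene CDH5 was at 55.9 FPKM in 8505C wt and 4.53 in 8505C-PTX, while the endothelial genes PECAM1 and VWF did not exceed 0.281 FPKM and the leukocyte gene PTPRC did not exceed 0.0197 in any library, and its part in the 8505C results was not tested. In bulk RNA, fewer cells of a type and less RNA per cell cannot be told apart.

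The wt lines differed from each other most in MYL9, at -4.01 in 8505C wt relative to SW1736 wt, and 17.6% of 13457 genes were beyond the threshold in that pair. Both PTX libraries were near each other, and TPM2 was the gene of the 9 beyond the threshold between them, at -1.58 for the library labelled SW1736-PTX relative to 8505C-PTX, where 7.79% of 13986 genes were. Over the 9 genes, the root mean square log2 difference was 0.72 between the PTX libraries, 1.58 between the wt libraries, 2.76 between SW1736 wt and the library labelled SW1736-PTX, and 1.67 between 8505C wt and 8505C-PTX. The library labelled SW1736-PTX was nearer to 8505C wt (1.40) than to SW1736 wt in these genes, as it was across all genes.

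Genes near these on the chromosome gave a local background. Within 2 Mb of MYL9, 58 other genes were compared in SW1736, with a median log2 fold change of -0.47, and 55 in 8505C, with a median of 0.19, and 0 of them were lower than MYL9 in either line. Around TAGLN, the medians were 0.35 over 41 genes and 0.51 over 42, and again 0 were lower than TAGLN. Around ACTB, the medians were -0.06 over 32 genes and 0.28 over 31, and 0 and 1 of them were lower than ACTB. These 3 genes were taken because they were lower, so the small numbers of lower neighbours follow in part from the choice. A regional part in their values was not tested.

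The other genes of the actin system were taken from lists written with earlier results of these data known, and each is described by its counts and median. The values over all genes to set beside them are those given above, with 10.2% called lower and 15.7% higher in SW1736, 5.89% and 15% in 8505C, and medians of 0.01 and 0.11. The ARP2/3 complex, which nucleates branched filaments, had the lowest medians among the lists with at least 7 genes compared in each line. Of its 10 genes, 3 were called lower in SW1736 (median -1.13) and 3 in 8505C (median -0.90), with 0 called higher in either. Values below 0 in both lines were seen for 9 of the 10, beside 32.7% of all genes. ARPC1A, a subunit of the complex, was at 191 FPKM in SW1736 wt, 21.7 in the library labelled SW1736-PTX, 105 in 8505C wt and 29.3 in 8505C-PTX, with log2 fold changes of -3.13 and -1.83. ARPC1B, its close relative, was at 212, 18.2, 98.4 and 25.9 FPKM, with changes of -3.53 and -1.92. Both were also called lower when the library labelled SW1736-PTX was set against 8505C wt, at -2.26 and -2.43. They are neighbours on chromosome 7 (99325873 to 99366262 and 99374675 to 99394781, hg38), and the 81 other genes compared within 2 Mb of them had a median of -1.74 in SW1736, while 74 had a median of -0.73 in 8505C. ARPC1A and ARPC1B were lower than most of these neighbours, since 5 and 3 of the 81 were lower still in SW1736 and 4 and 3 of the 74 in 8505C. Both were named because they were called lower in both lines, so these small numbers follow in part from the choice. Each is also counted among the neighbours of the other. A regional part in their values was not tested. Elsewhere in the complex, ARPC5L was called lower in 8505C (-2.02), and ACTR3 in SW1736 (-1.59) but not against 8505C wt (-0.95).

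Among 22 genes of actin assembly and turnover, 2 were called lower and 2 higher in SW1736 (median -0.37), and 4 were called lower and 0 higher in 8505C (median -0.64). DIAPH3, a formin that extends unbranched filaments, was at 25.6 FPKM in SW1736 wt, 4.89 in the library labelled SW1736-PTX, 26.0 in 8505C wt and 3.05 in 8505C-PTX. It was called lower in both lines, at -2.36 and -3.05, and at -2.38 against 8505C wt. It lies on chromosome 13, whose genes had a median of -0.98 in SW1736 and -0.82 in 8505C. CAPZA2, a subunit of the protein that caps filament ends, was called lower at -2.20 and -1.53, and the median of its neighbours within 2 Mb on chromosome 7 was -1.43 and -0.69. TMSB4X, which encodes the monomer-binding thymosin beta-4, was at 1166 FPKM in SW1736 wt, 2881 in the library labelled SW1736-PTX, 1059 in 8505C wt and 2695 in 8505C-PTX. Its log2 fold changes of 1.30 and 1.35, and 1.44 against 8505C wt, did not pass the threshold. GSN (gelsolin, which severs filaments) was called higher in SW1736, at 1.92, and was at 1.49 in 8505C, just outside the threshold. DIAPH2, another formin gene, was called higher in SW1736 (2.78) but was at -0.34 against 8505C wt and at -0.05 in 8505C. WDR1, which helps cofilin to disassemble filaments, was called lower in 8505C (-1.58) and was at -0.06 in SW1736 and -1.07 against 8505C wt.

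Among 16 genes of myosin II and its regulators, 1 was called lower and 1 higher in SW1736 (median -0.23), and 0 and 1 in 8505C (median -0.02). MYH14, a non-muscle myosin II heavy chain, was called higher in both lines and against 8505C wt. It was listed at 0 in both wt libraries and reached 0.551 FPKM in the library labelled SW1736-PTX and 3.18 in 8505C-PTX. Its direction was thus fixed by the minimum. MYLK, the kinase that phosphorylates the regulatory light chains, was at 35.6 FPKM in SW1736 wt, 7.41 in the library labelled SW1736-PTX, 1.70 in 8505C wt and 2.40 in 8505C-PTX. It was called lower in SW1736 (-2.25), was at 0.48 in 8505C, and was called higher (2.07) when the library labelled SW1736-PTX was set against 8505C wt, so its direction in SW1736 depends on the reference library. MYH9, the most widely expressed heavy chain, had levels of 300, 135, 230 and 168 FPKM, with uncalled values of -1.16 and -0.45, and -0.77 against 8505C wt.

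The smooth muscle contractile genes other than these 10 went both ways. Of 7 compared in SW1736, 1 was called lower and 3 higher (median 0.62), and of 9 compared in 8505C, 0 were called lower and 5 higher (median 1.69). MYOCD, the smooth muscle cofactor of SRF, was listed at 0 in SW1736 wt and was at 1.40 FPKM in the library labelled SW1736-PTX, 0.0335 in 8505C wt and 0.591 in 8505C-PTX. It was called higher in both lines, as was SYNPO2, which encodes an actin-bundling protein, at 0.0218, 2.10, 0.261 and 1.27 FPKM. These levels are low. MYOCD and SYNPO2 in both lines passed the minimum through the PTX library alone. In 8505C so did DES (0 in wt, 0.652 FPKM in PTX) and LMOD1 (0.0764 and 0.552). Their direction was thus fixed by the minimum, and nothing is read from the counts and medians of this list. Among the more abundant genes of the list, SMTN was at 40.1, 10.1, 43.7 and 17.0 FPKM (log2 fold changes -1.98 and -1.36), and CSRP1 was at 33.5, 138, 270 and 113 FPKM (2.04 and -1.26).

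SRF itself was at 25.1 FPKM in SW1736 wt, 11.4 in the library labelled SW1736-PTX, 25.8 in 8505C wt and 9.20 in 8505C-PTX. Both wt libraries were higher than both PTX libraries, and the log2 fold changes of -1.13 and -1.48, and -1.17 against 8505C wt, did not reach the threshold. Centred on all genes, the 8505C value was -1.58 and would be called lower. The cofactor MKL1 was at 10.1, 11.4, 6.94 and 10.0 FPKM (0.16 and 0.52) and MKL2 at 3.15, 3.66, 3.996 and 5.21 FPKM (0.21 and 0.38), and against 8505C wt they were at 0.70 and -0.12. ELK1 was called lower in SW1736 (-1.71) and was at -0.59 in 8505C. FHL2, which encodes a LIM-domain cofactor, was called higher in 8505C (1.58, or 1.48 and not called when centred on all genes) and was at 0.01 in SW1736 and 1.17 against 8505C wt. Over the 8 genes of SRF and its cofactors, the medians were 0.09 and 0.16. Of the 10 immediate targets of SRF, all were compared in SW1736 and 9 in 8505C. In each line 0 were called lower and 2 higher, with medians of 0.40 and 0.59. ANKRD1, which encodes a cardiac-type ankyrin repeat protein, was called higher in both lines at 6.86, 96.1, 41.9 and 152 FPKM (3.79 and 1.85), and was at 1.20 against 8505C wt. The early response gene FOS was called higher in SW1736 (1.79) at a low level, and THBS1, which encodes the matrix protein thrombospondin-1, in 8505C (1.77). In SW1736, FOS passed the minimum through the PTX library alone, at 0.369 FPKM in wt and 1.53 in PTX. MYL9 and TAGLN were called lower, and ANKRD1 higher, in both lines. Against 8505C wt, MYL9 and TAGLN were again called lower and ANKRD1 was not called. The part of SRF in these changes was not tested.

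Among 22 focal adhesion partners of vinculin, 3 were called lower and 1 higher in SW1736 (median -0.20), and 1 and 0 in 8505C (median -0.09). ZYX (zyxin, recruited to filaments under tension) was called lower in both lines, at 160 FPKM in SW1736 wt, 37.0 in the library labelled SW1736-PTX, 117 in 8505C wt and 38.5 in 8505C-PTX. Its log2 fold changes were -2.11 and -1.60, and -1.66 against 8505C wt, beside a median of -1.49 in SW1736 and -0.68 in 8505C over the 18 other genes compared within 2 Mb on chromosome 7. FLNC, which encodes a filamin crosslinker, was at 1.41, 18.6, 51.7 and 27.3 FPKM. It was called higher in SW1736 (3.63) and was at -0.92 in 8505C and at -1.47 against 8505C wt.

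With 8505C wt as the reference of the library labelled SW1736-PTX, the list medians were -0.83 for the ARP2/3 complex, -0.53 for actin assembly and turnover, -0.21 for myosin II and its regulators, -0.22 for the focal adhesion partners, 0.18 for SRF and its cofactors, 0.54 for the immediate SRF targets and 0.06 for the other tropomyosin, actinin, calponin and transgelin genes. The median of the smooth muscle contractile genes turned from 0.62 to -0.13. Of the list genes called in SW1736, DIAPH2, CSRP1, ELK1, FOS and FLNC were among those no longer called against 8505C wt, while CAPZA2 (-1.84), SMTN (-2.11), GSN (2.39), MYOCD (3.49) and SYNPO2 (2.61) still were.

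**Figure D4:**
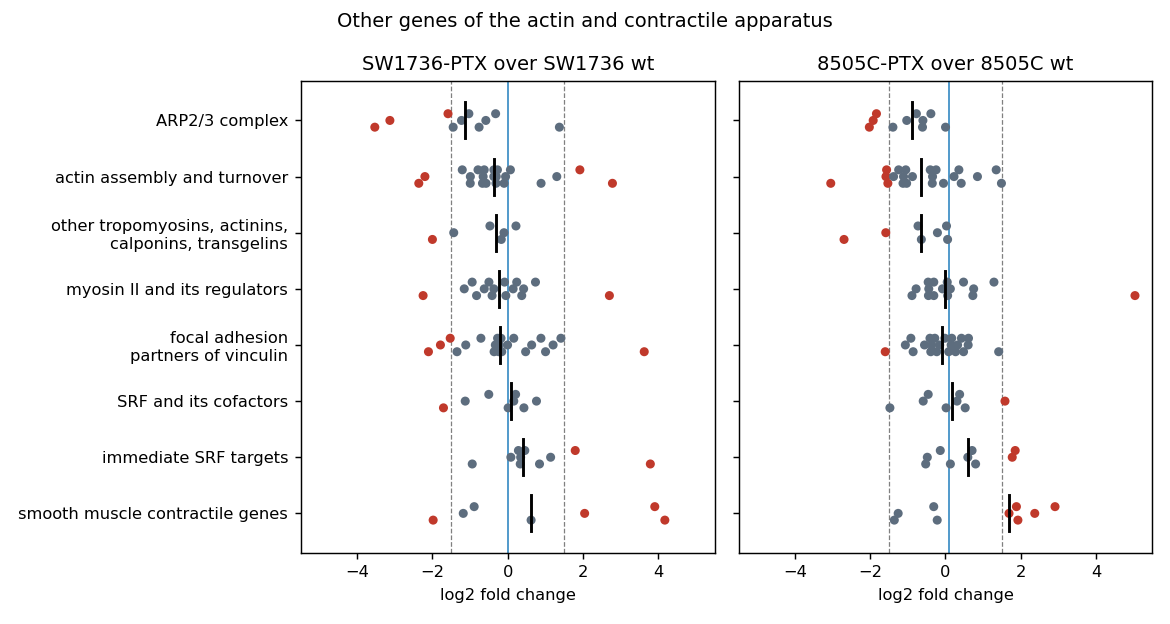
Log2 fold change of each compared gene (points) in 8 lists of actin-system genes, for SW1736-PTX over SW1736 wt on the left and 8505C-PTX over 8505C wt on the right. Red points lie beyond the threshold of 1.5 (dashed lines), the black bar is the median of the list and the blue line the median of all genes; the ARP2/3 medians lie at -1.13 and -0.90.

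ACTB is widely used as a reference gene for quantitative PCR and immunoblots, and served as such in the study, so its level was set beside other common reference genes. GAPDH was at 2769 FPKM in SW1736 wt, 2784 in the library labelled SW1736-PTX, 2592 in 8505C wt and 2788 in 8505C-PTX, and its log2 fold changes were 0.01 and 0.11, and 0.10 against 8505C wt. The ratio of GAPDH to ACTB was 0.565 in SW1736 wt and 0.553 in 8505C wt, compared with 1.43 in the library labelled SW1736-PTX and 1.79 in 8505C-PTX. TBP was at 9.07, 8.96, 14.1 and 13.2 FPKM (-0.02 and -0.10, and -0.65 against 8505C wt). Of the 13 reference genes other than the actins, 1 was called lower and 0 higher in SW1736 (median -0.02), and 2 and 1 in 8505C (median -0.13), with a median of -0.21 against 8505C wt. HPRT1 was called lower in both lines, at 99.6, 25.1, 43.7 and 14.8 FPKM (-1.98 and -1.56). It was at -0.80 against 8505C wt. TFRC was called lower in 8505C (-1.61) and against 8505C wt (-1.56) and was at -1.25 in SW1736. B2M was at 1.21 and 1.37, RPLP0 at 0.31 and 0.59 and PPIA at -0.60 and -0.13 on the log2 scale, SW1736 first, and at 1.14, 0.34 and -0.39 against 8505C wt. GUSB was called higher in 8505C, at 3.94, in a region of chromosome 7 where the 31 other genes compared within 2 Mb had a median of 3.35. These values are mRNA levels, and protein was not analysed here.

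**Figure D5:**
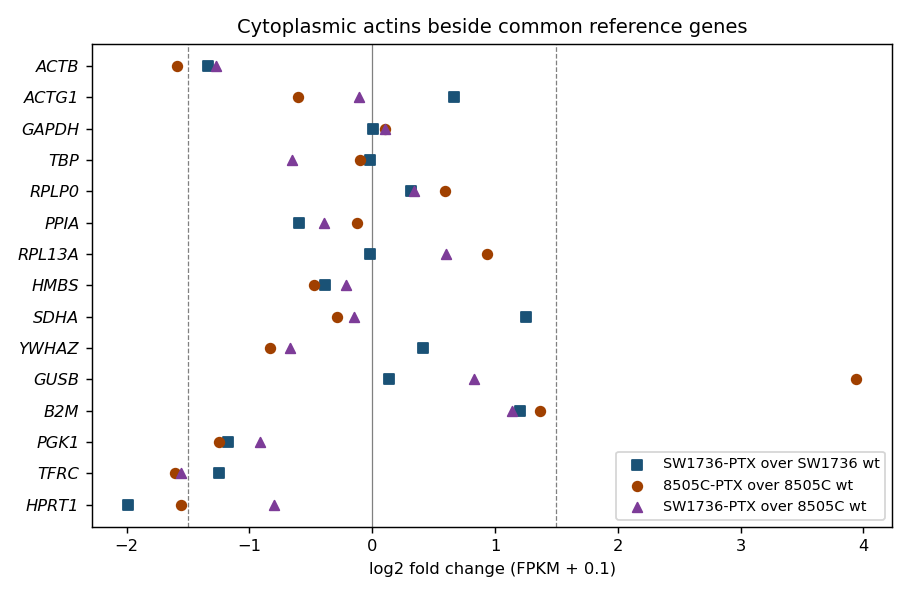
Log2 fold change on the FPKM + 0.1 scale of ACTB, ACTG1 and 13 reference genes for SW1736-PTX over SW1736 wt (squares), 8505C-PTX over 8505C wt (circles) and SW1736-PTX over 8505C wt (triangles), with dashed lines at 1.5 in either direction. GAPDH lies between 0.01 and 0.11 in the 3 comparisons and ACTB between -1.59 and -1.27.

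Of 898 genes at 50 FPKM or more in all 4 libraries, those whose pattern over the 4 libraries was most like that of ACTB were SNRPG, UBE2S, STMN1, CSE1L and PA2G4. Likeness was measured as the root mean square difference of log2 levels, each centred on its own mean over the libraries, and ran from 0.0438 for SNRPG to 0.0988 for PA2G4. SNRPG, a spliceosome protein gene, was at 150 FPKM in SW1736 wt, 62.6 in the library labelled SW1736-PTX, 155 in 8505C wt and 51.1 in 8505C-PTX. STMN1, which encodes the microtubule-destabilising protein stathmin, was at 285, 112, 244 and 91.9 FPKM in these libraries. Among the 10 genes, ACTN1 was nearest to ACTB, at rank 30 (0.232), TPM1 was at rank 429 (0.704) and ACTG1 at rank 546 (0.806). The ranking rests on 4 libraries and is a description only.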

How the data were processed

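Per the labels and the study's methods, mRNA libraries (Universal Plus mRNA-Seq) were sequenced as single-end 75 bp reads on an Illumina NextSeq instrument, with format conversion and demultiplexing by bcl2fastq 2.20. The authors trimmed adapters with Cutadapt and low-quality bases with ERNE, aligned reads to hg38 with STAR and quantified loci with StringTie. The versions of ERNE, STAR and StringTie, the annotation and the use of strand are not given in the sources used here. The deposited tables hold, for each gene, the mean read coverage, which the authors did not scale for depth. The authors' FPKM is scaled to gene length and aligned fragments, and the deposited TPM to an equal total per library. Count tests need read numbers, which these units do not give, and were not used.

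FPKM of repeated gene names were summed. Comparison used log2(FPKM + 0.1), a minimum of 0.5 FPKM in one or both libraries and a threshold of 1.5. Depth was taken as the most frequent ratio of coverage to FPKM (3.67, 4.34, 3.27 and 4.02 Gb for SW1736 wt, SW1736-PTX, 8505C wt and 8505C-PTX). Read numbers used GENCODE release 44 transcript lengths on hg38, and intervals were exact binomial at 95%. With 1 library per condition no p-value was computed. The members, the lists and the rule for named genes were chosen with earlier results of these data known. The genes named were the members, the list genes called in both lines and those with the largest changes in either line, 6 reference genes and the 5 genes most like ACTB. Other genes of the lists, such as SRF, MKL1, MYL12A, MYL12B, MYH9, TMSB4X and ACTR3, and the chromosome 13 median were added after their values were seen. Some list genes are not reported here. Alternatives changed the pseudocount, the minimum, the unit, the centring, the rows, the threshold and the reference library. Python 3.11.15, NumPy 2.4.6, pandas 2.3.3, SciPy 1.17.1 and matplotlib 3.10.9 were used.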

Additional observations from a re-analysis of the deposited data

Results flagged for a closer look

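For 3 of the 9 compared genes, the PTX library lay above its wt library in one line and below it in the other. In each case the difference between the lines was not tested, since each line has 1 library per condition. ACTG1, the gamma-actin gene, had a log2 fold change of 0.67 in SW1736 and -0.60 in 8505C, a difference of 1.27. ACTA2, the smooth muscle alpha-actin gene, was at -0.48 in SW1736 and 1.28 in 8505C, a difference of -1.75, on about 126 to 385 reads per library. TPM1, a tropomyosin gene, was at -1.19 and 0.20, a difference of -1.38. When the library labelled SW1736-PTX was set against 8505C wt, the values for ACTG1, ACTA2 and TPM1 were -0.11, 0.28 and 0.31. None of these genes passed the threshold of 1.5 in either line.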

How the results depend on the processing

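Over 153 member values recomputed under alternatives at the threshold of 1.5, 0 changed their side of it and 3 changed sign, ACTG1 (from 0.67 to -0.11), ACTA2 (from -0.48 to 0.28) and TPM1 (from -1.19 to 0.31), all with 8505C wt as the reference of the library labelled SW1736-PTX, where the members' median went from -0.88 to -0.18. The 153 values include those under the changed minimum and the changed rows. These settings could not move a member's value by design (largest shift 0), so that part of the count was fixed in advance. With a threshold of 1 instead of 1.5, 4 members were called lower in SW1736 and in 8505C 4 were called lower and 2 higher. With a threshold of 2, 2 were called lower in 8505C, where ACTB lost its call, and 0 higher. Centring on all genes moved the 8505C median from -0.61 to -0.72. A pseudocount of 1 moved a member by at most 0.65 and TPM by at most 0.09. Coverage divided by aligned Gb, chosen after seeing the data, moved one by at most 0.11. Over all genes, the numbers called lower and higher in SW1736 went from 1445 and 2236 to 841 and 1222 with a pseudocount of 1 and to 851 and 850 with the minimum applied to both libraries, and in 8505C from 812 and 2068 to 473 and 969 and to 591 and 1018. Each condition has 1 library and no replicate number, so no replicate block was fitted and no library was left out. A fit over both lines with the line as a block was not run. The spread between cultures is unknown. Depth limits CNN1 and the lowest values of MYL9, which rest on about 75.3 reads in 8505C-PTX.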
